A study of Caenorhabditis elegans with 12 samples.

Results

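The cuticlins of Caenorhabditis elegans were followed as daf-2 larvae approached the dauer stage with and without a mutation in daf-42. The genes were all those with a WormBase symbol made of cut or cutl and a number, 35 of the 22113 genes in the data. They comprise 6 cut genes and 29 cutl genes, the cuticlin-like genes. One strain, LJ2703, had the genotype daf-2(e1370);daf-42(ys54), called the double mutant here, and was harvested at 60 h and at 52 h after egg lay. The other strain, CB1370, had daf-2(e1370) alone and was harvested at the same times as its control. All 4 groups carried the e1370 allele of the insulin-like receptor daf-2, which drives larvae into dauer at raised temperature, and the labels do not say what the ys54 allele changes. Eggs were laid over 2 h at 15 °C and larvae were kept at 25 °C to late L2d, the larval stage before dauer. Each group had 3 libraries of polyadenylated RNA from whole animals, and the labels do not say whether the 3 came from separate cultures, so p-values measure the spread between these samples, which may be technical.

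The nematode cuticle is an extracellular coat of collagens together with cuticlins, proteins that stay insoluble after strong detergent and reducing agents. Most CUT and CUTL proteins carry a zona pellucida (ZP) domain, a module with which secreted or membrane-bound proteins assemble into filaments. The epidermis and its lateral seam cells make them, and several are known from the alae, the ridges along the sides of L1, dauer and adult animals. CUT-1 was described in the ribbon beneath the dauer alae, CUT-6 acts in dauer alae and body shape, and CUT-3 and CUT-5 act in L1 alae, CUT-5 in dauer alae too. CUT-2 is a cuticlin without a ZP domain whose tyrosine-rich repeats can be cross-linked.

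Libraries held 30011686 to 43519410 estimated counts. Of the 35 genes, 32 had enough counts to be tested. As a check of the labels, daf-42 averaged 166 ± 100 CPM (counts per 1000000 of the scaled library) in double mutants and 1154 ± 732 CPM in daf-2 at 60 h, and 780 ± 97 CPM in double mutants and 1648 ± 562 CPM in daf-2 at 52 h (SD, n = 3 each). Per the labels, double mutants collected at 60 h included living and dead larvae, so death and genotype cannot be told apart at that time, nor can fewer cells of a type and less RNA per cell. Replicates spread more at 60 h: the median SD of log2 CPM over genes was 0.374 in double mutants and 0.363 in daf-2, against 0.206 in double mutants and 0.184 in daf-2 at 52 h. Longer genes were lower relative to shorter ones in the double mutant 60 h libraries. The Spearman correlation of fold change with transcript length over 16371 genes, as a description, was -0.46 for genotype at 60 h and -0.54 for time in double mutants, against -0.05 for time in daf-2. It ran the other way, at 0.27, for genotype at 52 h and was -0.5 for the interaction of genotype and time. Its part in the results below was not tested, but the values with a length offset, which removes such a trend from each library, are given beside each cuticlin gene whose call they change.

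One gene, cut-1, made up most of the family's RNA in every library. On the deposited per-length scale of TPM (transcripts per 1000000), cut-1 (WBcel235 chromosome II, 11269122 to 11271660, plus strand) reached 4221, 959 and 2382 TPM in double mutants and 3306, 4518 and 1625 TPM in daf-2 at 60 h. At 52 h it reached 7684, 5613 and 4951 TPM in double mutants and 4840, 6488 and 6589 TPM in daf-2. On the TPM scale all 6 libraries at 52 h lay above all 6 at 60 h, and the genotypes overlapped at both times. In CPM cut-1 overlapped between the times in double mutants and not in daf-2. Its share of the summed TPM of the 35 genes was, at 60 h, 73.2% to 88.6% in double mutants and 78.3% to 87.4% in daf-2. At 52 h it was 90.6% to 94.0% in double mutants and 90.7% to 91.7% in daf-2. The summed level of the family therefore followed cut-1. At 60 h the sum lay between 1311 and 4765 TPM in double mutants and between 2075 and 5168 TPM in daf-2 libraries. At 52 h it lay between 5464 and 8179 TPM in double mutants and between 5336 and 7188 TPM in daf-2 libraries. Without cut-1 the other 34 genes summed to between 352 and 650 TPM in every library, with no separation of the groups.

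Behind cut-1 the order of the genes changed with time. At 52 h cut-6, with group means of 247 ± 20 TPM in double mutants and 271 ± 45 TPM in daf-2, was second in all 6 libraries and cut-5 was next, at 118 ± 10 TPM in double mutants and 149 ± 8.43 TPM in daf-2 (SD, n = 3 each). At 60 h cutl-23 was second in all 3 daf-2 libraries, with 146, 189 and 128 TPM, while in the double mutant libraries, where it had 94.7, 55.5 and 72.8 TPM, the second place went to cut-6 in 2 libraries and to cutl-14 in 1. Many of the cutl genes were scarce: 12 of the 35 genes averaged under 1 TPM in double mutants and 9 in daf-2 at 60 h, and 9 in double mutants and 8 in daf-2 at 52 h.

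**Figure D1:**
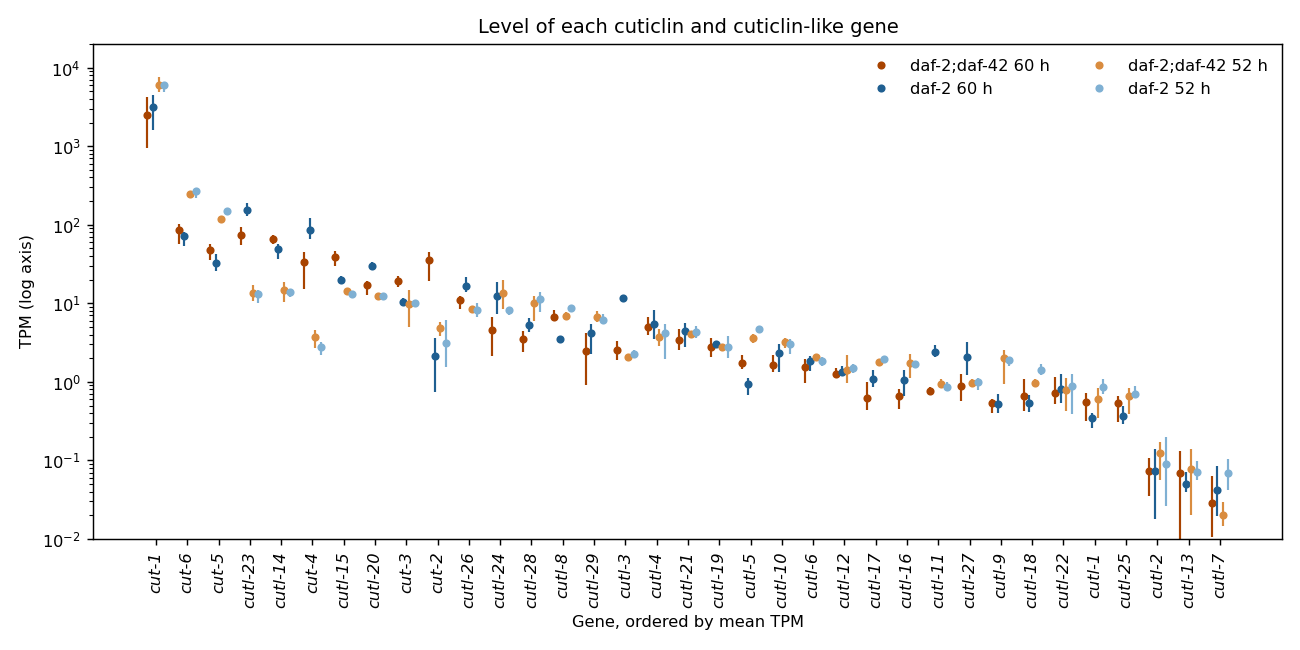
Level of each of the 35 genes in TPM on a log axis, with the genes ordered by mean level; points are means of 3 libraries in each of the 4 groups and lines run from the lowest to the highest library. The gene cut-1 stands far above the rest, and 8 to 12 genes in each group average under 1 TPM.

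At 60 h 13 of the 32 tested genes were called, with 8 higher and 5 lower in double mutants (edgeR quasi-likelihood test, Benjamini-Hochberg adjusted p under 0.05 over 16371 genes). Over all genes tested 34.4% were called in this comparison, 17.4% higher and 17% lower, so the 13 of 32 stood near the background. The median log2 fold change of the 32 was 0.09, against -0.01 over all genes tested. In 14 of the 32 the libraries of the genotypes did not overlap in CPM, against 38.8% of all genes tested.

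Among the cut genes 4 were higher in double mutants, 1 was lower and 1 was not called. The non-ZP cuticlin cut-2 (chromosome V, 13414949 to 13416064, plus strand) had 43.0, 26.9 and 55.0 CPM in double mutants and 3.24, 1.47 and 0.856 CPM in daf-2. All 3 double mutant libraries were far above the daf-2 libraries, and the log2 fold change was 4.50 (SE 0.62, adjusted p = 0.000289). Leaving out daf-2 60 h replicate 1 brought it to 5.17, and the other fits without 1 library gave 4.14 to 4.77.

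The genes of the L1 and dauer alae moved less. For cut-3 (chromosome II, 8445169 to 8446831, minus strand) the libraries held 31.5, 32.2 and 32.2 CPM in double mutants and 14.5, 11.5 and 14.4 CPM in daf-2, a log2 fold change of 1.25 (SE 0.32, adjusted p = 0.0124). For cut-5 (chromosome X, 10333858 to 10338200, minus strand) they held 82.8, 71.5 and 91.6 CPM in double mutants and 54.1, 32.3 and 41.0 CPM in daf-2, a log2 fold change of 0.95 (SE 0.21, adjusted p = 0.00585). Neither gene's genotypes overlapped in CPM, although for cut-5 they did in TPM, with 56.7, 35.2 and 52.1 TPM in double mutants and 42, 29.2 and 25.6 TPM in daf-2. The dauer alae gene cut-6 (chromosome III, 10911460 to 10916665, plus strand) had 211, 166 and 242 CPM in double mutants and 149, 127 and 123 CPM in daf-2, a log2 fold change of 0.63 (SE 0.21, adjusted p = 0.0376). It also overlapped in TPM, and its call was lost when any of 9 of the 12 libraries was left out. It was kept only without daf-2 52 h replicate 1 (0.63), double mutant 52 h replicate 3 (0.67) or double mutant 60 h replicate 2 (0.79).

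The cuticlin gene cut-4 (chromosome II, 10436136 to 10440087, plus strand) was lower in double mutants, with 94.7, 44.4 and 104 CPM, against 134, 196 and 153 CPM in daf-2. The log2 fold change was -0.99 (SE 0.33, adjusted p = 0.0352). Leaving out double mutant 60 h replicate 2, the lowest double mutant library, brought it to -0.68, and leaving out daf-2 60 h replicate 2, the highest daf-2 library, brought it to -0.78. The call was lost in both fits, as it was without double mutant 52 h replicate 3 (-0.96) or daf-2 52 h replicate 3 (-0.99). For cut-1 the 60 h libraries held 6902, 2184 and 4693 CPM in double mutants and 4772, 5613 and 2911 CPM in daf-2. They overlapped widely and no genotype difference was called (log2 fold change 0.05, SE 0.42, adjusted p = 0.932).

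**Figure D2:**
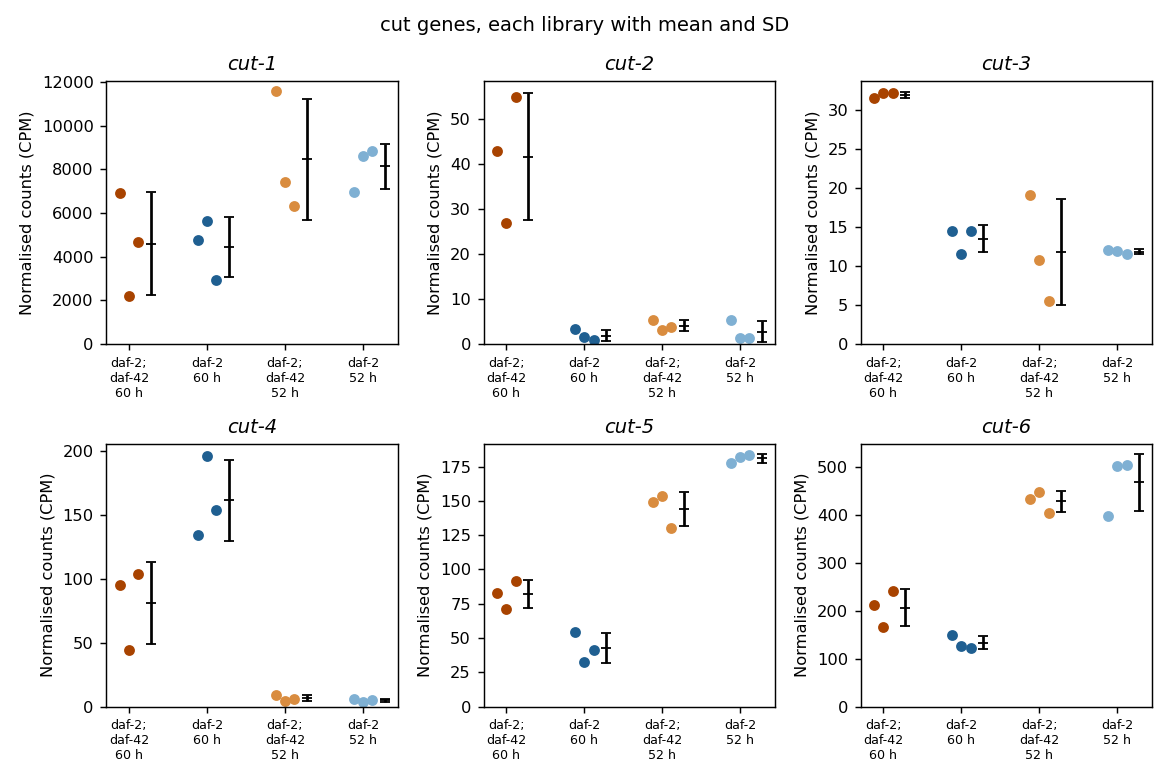
Normalised counts (CPM, linear axes) of the 6 cut genes in each of the 12 libraries, with group means and SD of 3 libraries. At 60 h all double mutant libraries lie above the daf-2 libraries for cut-2, cut-3, cut-5 and cut-6 and below them for cut-4, while for cut-1 they overlap.

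Among the 26 tested cutl genes, named for their likeness to cuticlins and mostly without a described role, 4 were higher in double mutants at 60 h and 4 were lower. The largest rise was in cutl-15 (chromosome II, 8942668 to 8947688, minus strand), with 68.2, 71.2 and 93.3 CPM in double mutants and 28.3, 28.6 and 33.9 CPM in daf-2, a log2 fold change of 1.36 (SE 0.17, adjusted p = 0.000166). In cutl-5 (chromosome II, 7113683 to 7115906, minus strand) it was 1.27 (SE 0.20, adjusted p = 0.000692), with 3.61, 3.38 and 3.19 CPM in double mutants and 1.67, 1.31 and 1.23 CPM in daf-2. The genotypes were separate for both. They were separate for cutl-8 too (chromosome I, 8270304 to 8275706, plus strand), with 7.45, 11.3 and 8.15 CPM in double mutants and 4.72, 4.18 and 4.25 CPM in daf-2 and a log2 fold change of 1.03 (SE 0.17, adjusted p = 0.00112). For cutl-14 (log2 fold change 0.83, adjusted p = 0.0433) the genotypes overlapped in CPM, with 63.2, 101 and 98.3 CPM in double mutants and 35.7, 47.6 and 64.5 CPM in daf-2. Its call was lost when any of 8 of the 12 libraries was left out and kept only without double mutant 60 h replicate 1 (1.02), daf-2 60 h replicate 3 (1.07), or double mutant 52 h replicate 1 (0.83) or 3 (0.87).

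The largest fall was in cutl-3 (chromosome X, 14994752 to 14999201, minus strand). It had 6.23, 4.96 and 5.77 CPM in double mutants and 21.6, 17.2 and 21.9 CPM in daf-2, with a log2 fold change of -1.84 (SE 0.17, adjusted p = 1.67e-05). The next was cutl-11 (chromosome X, 11648188 to 11650851, minus strand), with 0.886, 1.52 and 1.14 CPM in double mutants and 2.41, 2.84 and 2.84 CPM in daf-2, a log2 fold change of -1.19 (SE 0.25, adjusted p = 0.00432). For both, every double mutant library was below every daf-2 library. In cutl-24 (chromosome IV, 165077 to 169980, plus strand) the libraries had 16.4, 7.26 and 13.7 CPM in double mutants and 24.6, 34.6 and 19.5 CPM in daf-2, a log2 fold change of -1.07 (SE 0.32, adjusted p = 0.0235). In cutl-27 (chromosome IV, 11878549 to 11884134, plus strand) they had 4.59, 2.88 and 3.68 CPM in double mutants and 5.98, 8.87 and 4.88 CPM in daf-2, a log2 fold change of -0.82 (SE 0.25, adjusted p = 0.0278). Neither gene overlapped in CPM, but each call was lost in several of the fits without 1 library. The cutl-24 call was lost without double mutant 60 h replicate 2 (-0.78) or 3 (-1.15), or daf-2 60 h replicate 2 (-0.77). The cutl-27 call was lost without double mutant 60 h replicate 2 (-0.65) or 3 (-0.81), or daf-2 60 h replicate 2 (-0.49). It was lost with the length offset too, where the log2 fold change was -0.09 for this gene of 2910 bases, among the longest of the family.

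Not called by edgeR with all libraries, but without overlap in CPM, were cutl-1 and cutl-23. The cutl-1 libraries held 0.820, 0.589 and 1.14 CPM in double mutants and 0.432, 0.406 and 0.377 CPM in daf-2 (log2 fold change 1.07, adjusted p = 0.0552). The cutl-23 libraries held 284, 228 and 263 CPM in double mutants and 386, 431 and 420 CPM in daf-2 (log2 fold change -0.68, adjusted p = 0.0514, and -0.15 with the length offset). DESeq2 called 15 of the 32 genes, both of these among them (adjusted p = 0.0417 for cutl-1 and 0.015 for cutl-23). The share of all genes tested that DESeq2 called is not given here. RLE and upper-quartile scaling also brought cutl-23 past the threshold (adjusted p = 0.046 and 0.0454), as the stricter count filter did cutl-1 (adjusted p = 0.0475). With the length offset 15 of the 32 genes were called, against 34.9% of all genes tested. The offset added cutl-12 (0.58), cutl-18 (1.11) and cutl-20 (-0.52) to the calls and removed cutl-27.

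**Figure D3:**
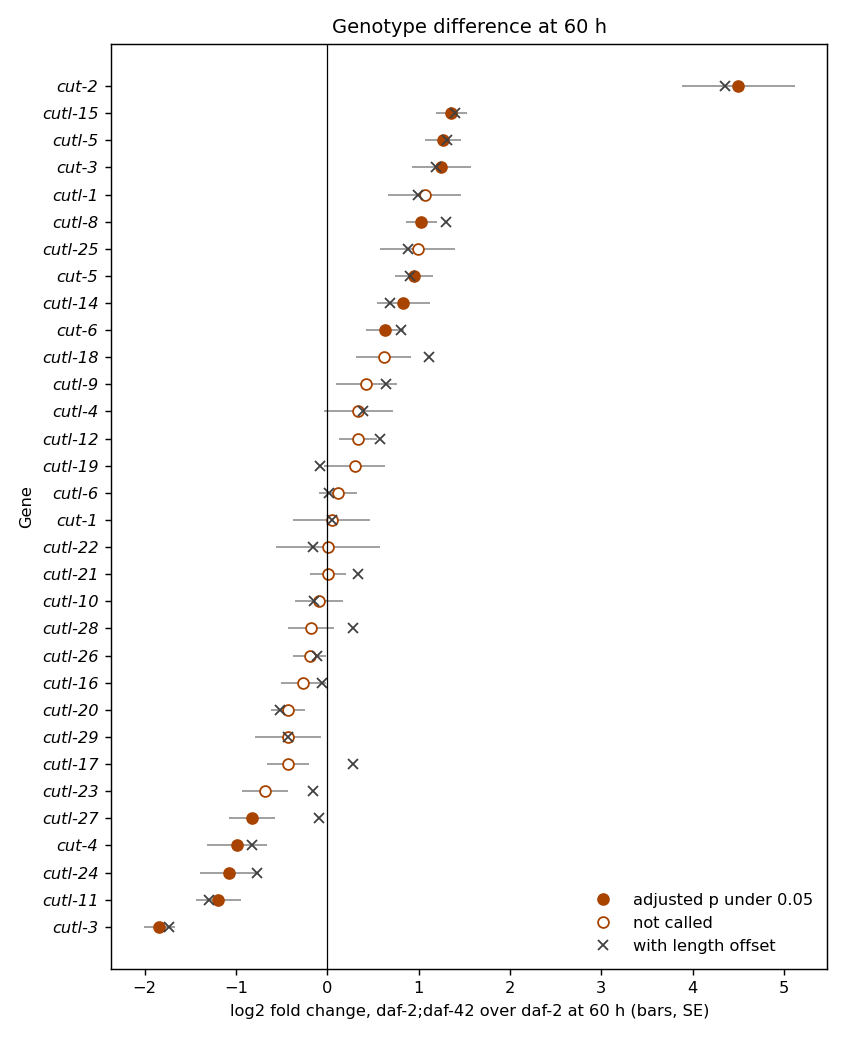
Log2 fold change of double mutants over daf-2 at 60 h for the 32 tested genes, with SE as bars; filled points have adjusted p under 0.05 and crosses are the fold changes with a length offset. The gene cut-2 has the largest rise (4.50) and cutl-3 the largest fall (-1.84), and the cross of cutl-27 lies near 0.

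Markers of several tissues were called at 60 h as well, in a comparison where 34.4% of all genes tested were called. No tissue's count was tested against that share. Of 5 epidermal markers, 2 were higher (dpy-7, 1.08, and dpy-10, 0.75, both cuticle collagens) and 1 was lower (vab-10, a cytoskeletal linker, -2.93) in double mutants at 60 h. The summed level of the 5 was 278 to 815 CPM in double mutants and 1351 to 5870 CPM in daf-2, most of it vab-10, at 381 ± 268 CPM in double mutants and 2903 ± 2526 CPM in daf-2 (SD, n = 3 each). Without vab-10 the other 4 ran the other way, with sums of 129 to 166 CPM in double mutants and 57.2 to 114 CPM in daf-2. The 4 body wall muscle markers summed to 3223 to 9735 CPM in double mutants and 11961 to 37744 CPM in the daf-2 libraries, with 2 called lower, and no marker of any of the 6 tissues looked at was at 0. Of the 4 pharynx and 5 neuron markers none was called by edgeR, with 1 pharynx marker at an unadjusted p under 0.05, while 1 of 4 intestine markers was higher and 1 lower, and 2 of 4 germline markers were lower. Under the length offset 3 epidermal markers were higher and 1 lower, while 3 muscle markers and 1 germline marker were lower. With that offset 34.9% of all genes tested were called. The part of tissue makeup in the cuticlin differences was not tested.

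At 52 h none of the 32 genes was called between the genotypes, against 0.635% of all genes tested. The median log2 fold change was 0. By the edgeR test 3 of the 32 genes had an unadjusted p under 0.05, against 988 of all 16371 genes tested. The 3 were cutl-8 (log2 fold change -0.39, adjusted p = 0.754), cutl-12 (-0.48, adjusted p = 0.755) and cutl-24 (0.70, adjusted p = 0.800), and DESeq2 called none. In 6 of the 32 the genotypes did not overlap, against 18.2% of all genes tested. The gene cut-2, so different at 60 h, had 5.43, 3.10 and 3.71 CPM in double mutants and 5.40, 1.39 and 1.27 CPM in daf-2, and its libraries overlapped. The other cut genes had log2 fold changes between -0.33 (cut-5, whose libraries did not overlap, at 149, 153 and 130 CPM in double mutants and 178, 182 and 184 CPM in daf-2) and 0.44 (cut-4).

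Over the 8 hours between the harvests more of the family was called than between the genotypes. In daf-2;daf-42 19 of the 32 genes were called, 10 higher and 9 lower at 60 h, against 41% of all genes tested (22.4% higher and 18.6% lower). In daf-2 18 were called, 9 higher and 9 lower, against 34.7% of all genes tested (18.5% higher and 16.2% lower). The medians were 0.21 in double mutants and -0.08 in daf-2, against 0 and 0.07 over all genes tested. In 22 of the 32 genes in each genotype the times did not overlap, against 55.7% of all genes in double mutants and 48.7% in daf-2. With the length offset the split was 13 higher and 7 lower in double mutants (37.8% of all genes called) and 10 higher and 10 lower in daf-2 (45.4% of all genes called).

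A group of cuticlin genes rose from 52 h to 60 h in both genotypes. The largest rise was in cut-4, which had 94.7, 44.4 and 104 CPM at 60 h against 9.04, 4.61 and 6.32 CPM at 52 h in double mutants (log2 fold change 3.61, SE 0.36, adjusted p = 2.32e-05). In daf-2 it had 134, 196 and 153 CPM at 60 h against 5.90, 3.82 and 4.93 CPM at 52 h (5.04, SE 0.39, adjusted p = 1.87e-06). In both genotypes each 60 h library stood above all 52 h libraries. The same held for cutl-23 (chromosome III, 5770185 to 5774703, plus strand). It had 284, 228 and 263 CPM at 60 h against 47.0, 30.9 and 24.4 CPM at 52 h in double mutants (2.92, SE 0.27, adjusted p = 1.16e-05), and 386, 431 and 420 CPM at 60 h against 26.6, 35.2 and 36.0 CPM at 52 h in daf-2 (3.66, SE 0.27, adjusted p = 1.56e-06). In cutl-14 (chromosome I, 10628743 to 10631674, plus strand) the libraries at 60 h held 63.2, 101 and 98.3 CPM against 18.9, 13.2 and 9.02 CPM at 52 h in double mutants (2.68, adjusted p = 6.33e-05), and 35.7, 47.6 and 64.5 CPM at 60 h against 11.4, 13.2 and 13.3 CPM at 52 h in daf-2 (1.96, adjusted p = 0.000302). These 3 genes were among the 4 largest rises in each genotype.

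The remaining place among the 4 largest rises was held by different genes. In daf-2;daf-42 it was cut-2, which had 43.0, 26.9 and 55.0 CPM at 60 h against 5.43, 3.10 and 3.71 CPM at 52 h (3.35, SE 0.58, adjusted p = 0.0012). In daf-2 cut-2 was not called (-0.55, adjusted p = 0.506), with 3.24, 1.47 and 0.856 CPM at 60 h against 5.40, 1.39 and 1.27 CPM at 52 h. In daf-2 the place was held by cutl-3, with 21.6, 17.2 and 21.9 CPM at 60 h against 3.81, 3.96 and 3.12 CPM at 52 h (2.48, SE 0.18, adjusted p = 1.13e-06). In daf-2;daf-42 cutl-3 rose as well but by 0.79 (adjusted p = 0.00512), with 6.23, 4.96 and 5.77 CPM at 60 h against 3.64, 3.15 and 3.01 CPM at 52 h. Both genes separated the times completely wherever they were called.

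Smaller rises were called in both genotypes for cutl-15 (1.93 in double mutants and 0.69 in daf-2), cutl-20 (1.03 and 1.47) and cutl-26 (0.88 and 1.08). The L1 alae gene cut-3 rose in double mutants (1.44, adjusted p = 0.00537), with 31.5, 32.2 and 32.2 CPM at 60 h against 19.1, 10.8 and 5.53 CPM at 52 h, and was not called in daf-2 (0.19, adjusted p = 0.699), with 14.5, 11.5 and 14.4 CPM at 60 h against 12.1, 12 and 11.5 CPM at 52 h. The other rise called in double mutants alone was cutl-12 (0.59), a call that was lost when any of 9 of the 12 libraries was left out and kept only without daf-2 60 h replicate 2 (0.60) or 3 (0.59) or double mutant 52 h replicate 1 (0.72). In daf-2 alone cutl-11 (1.56) and cutl-27 (1.11) were called higher. With the length offset cutl-27 was called in double mutants too (1.12), and so were cutl-4 (1.05, adjusted p = 0.0399) and cutl-21 (0.56, adjusted p = 0.018).

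The alae genes cut-5 and cut-6 fell in both genotypes. For cut-5 the libraries held 82.8, 71.5 and 91.6 CPM at 60 h against 149, 153 and 130 CPM at 52 h in double mutants (-0.81, SE 0.21, adjusted p = 0.0106), and 54.1, 32.3 and 41.0 CPM at 60 h against 178, 182 and 184 CPM at 52 h in daf-2 (-2.09, SE 0.22, adjusted p = 1.75e-05). For cut-6 they held 211, 166 and 242 CPM at 60 h against 433, 449 and 404 CPM at 52 h in double mutants (-1.05, SE 0.21, adjusted p = 0.00315), and 149, 127 and 123 CPM at 60 h against 398, 502 and 504 CPM at 52 h in daf-2 (-1.81, SE 0.22, adjusted p = 5.42e-05). The times did not overlap for either gene in either genotype. The abundant cut-1 was not called over time, at -0.88 in both genotypes (adjusted p = 0.112 in double mutants and 0.137 in daf-2), with 6902, 2184 and 4693 CPM at 60 h against 11574, 7441 and 6338 CPM at 52 h in double mutants and 4772, 5613 and 2911 CPM at 60 h against 6944, 8629 and 8822 CPM at 52 h in daf-2. The times overlapped in double mutants and not in daf-2, and the SE was 0.43 in both. In daf-2;daf-42 it was called by DESeq2 (-0.90) and without double mutant 60 h replicate 1 (-1.30).

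Among the cutl genes the largest falls in daf-2 were in cutl-5, with 1.67, 1.31 and 1.23 CPM at 60 h against 6.88, 6.42 and 6.56 CPM at 52 h (-2.24, SE 0.20, adjusted p = 5.39e-06), and in cutl-8, with 4.72, 4.18 and 4.25 CPM at 60 h against 14.6, 14.7 and 15.0 CPM at 52 h (-1.75, SE 0.17, adjusted p = 1.32e-05). In daf-2;daf-42 the fold change of cutl-5 was -0.58 (adjusted p = 0.027), a call lost when double mutant 52 h replicate 1 (-0.49) or 2 (-0.53) or double mutant 60 h replicate 2 (-0.58) or 3 (-0.54) was left out, and cutl-8 was not called (-0.33, adjusted p = 0.128) except without double mutant 60 h replicate 2 (-0.53). In both genotypes cutl-9 fell, to 1.25, 1.21 and 1.57 CPM at 60 h against 1.89, 4.29 and 4.31 CPM at 52 h in double mutants (-1.38, SE 0.32, adjusted p = 0.0062) and to 1.33, 0.718 and 0.956 CPM at 60 h against 2.98, 3.61 and 3.47 CPM at 52 h in daf-2 (-1.74, SE 0.32, adjusted p = 0.00122). The times did not overlap for any of these called falls.

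The largest falls in double mutants also took in cutl-24, with 16.4, 7.26 and 13.7 CPM at 60 h against 19.1, 24.9 and 37.5 CPM at 52 h (-1.13, adjusted p = 0.0167), and cutl-17, with 3.67, 2.42 and 1.95 CPM at 60 h against 6.11, 5.83 and 5.10 CPM at 52 h (-1.09, adjusted p = 0.00354). The cutl-24 call was lost without double mutant 52 h replicate 3 (-0.80) or double mutant 60 h replicate 2 (-0.86). The cutl-17 transcript is 2988 bases, the longest of the family, and with the length offset its fold change was -0.26 and not called. In daf-2 cutl-17 was called too (-0.78), a call lost without daf-2 60 h replicate 1 (-0.69). Falls of cutl-28 were called in both genotypes (-1.01 in double mutants, or -0.46 and not called with the length offset, and -1.04 in daf-2). Falls of cutl-16 (-0.87) and cutl-29 (-1.03) were called in double mutants alone, and those of cutl-18 (-1.31) and cutl-1 (-1.25) in daf-2 alone. In daf-2 cutl-16 was called lower too with the length offset (-0.59, adjusted p = 0.0411). The cutl-16 call in double mutants was lost without double mutant 52 h replicate 3 (-0.65) or double mutant 60 h replicate 2 (-0.75). The cutl-29 call was lost without double mutant 52 h replicate 1 (-1.0), 2 (-1.14) or 3 (-0.93) or double mutant 60 h replicate 2 (-0.69) or 3 (-1.04). The cutl-1 call was lost without daf-2 52 h replicate 1 (-1.0) or daf-2 60 h replicate 1 (-1.29), 2 (-1.29) or 3 (-1.20).

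**Figure D4:**
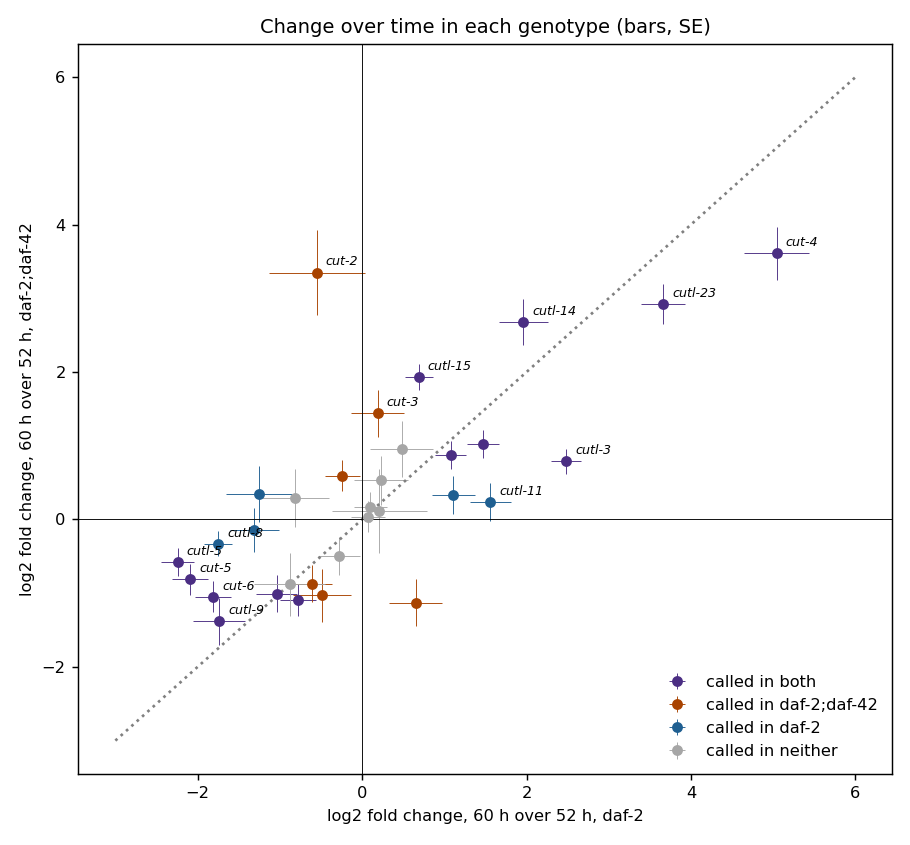
Log2 fold change of 60 h over 52 h in double mutants (vertical axis) and in daf-2 (horizontal axis) for the 32 tested genes, with SE as bars, colours for where a gene was called and a dotted line of equality. The genes called in both genotypes lie in the upper right (7) and lower left (6), and none of these 13 lies in the other corners.

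Of the called genes, 13 were called in both genotypes and in the same direction, which is 68.4% of the double mutant calls and 72.2% of the daf-2 calls, and none was called in opposite directions. The length offset made 1 exception, cutl-24, lower over time in double mutants (-0.76, adjusted p = 0.0172) and higher in daf-2 (0.65, adjusted p = 0.0286). The matching shares over all genes tested are not given here, so the 13 shared calls describe the cuticlin genes only. A call in 1 genotype alone does not show a difference between them, so the difference itself was tested. The change over time differed between the genotypes, as a genotype by time interaction, in 8 of the 32 genes, against 9.52% of all genes tested (5.58% higher and 3.94% lower). In 5 the change was higher in double mutants: cut-2, cutl-5, cutl-8, cut-5 and cutl-15. In 3 it was lower: cutl-24, cutl-3 and cutl-11. The interaction was 3.91 for cut-2 (SE 0.80, adjusted p = 0.0138), which fell to 2.89 without daf-2 52 h replicate 1 and reached 4.58 without daf-2 60 h replicate 1. It was 1.28 for cut-5 (SE 0.29, adjusted p = 0.0218) and 1.65 for cutl-5 (SE 0.27, adjusted p = 0.004). It was -1.69 for cutl-3 (SE 0.25, adjusted p = 0.0021). The cut-5 call was lost without double mutant 60 h replicate 3 (1.19), double mutant 52 h replicate 1 (1.3), or daf-2 52 h replicate 2 or 3 (1.27 in both), and the calls of cutl-11 and cutl-24 were each lost in 9 of the 12 fits without 1 library. With the length offset 11 were called, 8 higher and 3 lower, against 15.3% of all genes tested. For cut-4 (-1.43, adjusted p = 0.0674), cut-3 (1.26, adjusted p = 0.0836) and cut-6 (0.76, adjusted p = 0.105) the interaction was not called by edgeR with all libraries. DESeq2, for which the share of all genes called is not given here, called all 3 (adjusted p = 0.0265 for cut-4, 0.0433 for cut-3 and 0.0185 for cut-6), among 13 genes. It was also called for cut-3 without double mutant 52 h replicate 1 (1.79) and for cut-4 without double mutant 60 h replicate 1 (-1.56). The length offset added calls for cut-6 (0.96, adjusted p = 0.0115), cutl-12 (1.10, adjusted p = 0.0263) and cutl-18 (1.77, adjusted p = 0.0156). These are the same libraries as in the comparisons above, and the differences at 60 h are part of the interaction.

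The estimated levels of the cutl-8 transcripts went different ways. The deposited tables list a 2244-base transcript, a 923-base one and an 824-base one. The 2244-base transcript averaged 0.989 ± 0.292 TPM in double mutants and 1.04 ± 0.348 TPM in daf-2 at 60 h, and 4.13 ± 0.438 TPM in double mutants and 5.48 ± 0.361 TPM in daf-2 at 52 h (SD, n = 3 each). The 824-base transcript averaged 5.34 ± 1.08 TPM in double mutants and 2.29 ± 0.396 TPM in daf-2 at 60 h, and 2.05 ± 0.301 TPM in double mutants and 2.36 ± 0.370 TPM in daf-2 at 52 h. The long transcript was lower at 60 h than at 52 h in both genotypes, and only the 824-base transcript separated the genotypes at 60 h, with 4.64 to 6.58 TPM in double mutants and 1.85 to 2.61 TPM in daf-2. It made up 79.0% of the gene's TPM in double mutants and 64.3% in daf-2 at 60 h, and 30.1% in double mutants and 27.2% in daf-2 at 52 h. Transcripts were not tested singly, and the gene sum of counts mixes a fall of the long one with the level of the short one. Exons of cutl-8 also overlap the more abundant T01G9.2 on the opposite strand, so reads of the 2 genes may be mixed. At 60 h T01G9.2 averaged 106 ± 10.9 CPM in double mutants, against 8.98 ± 2.08 CPM for cutl-8. In daf-2 it averaged 80.2 ± 18.1 CPM, against 4.39 ± 0.291 CPM.

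**Figure D5:**
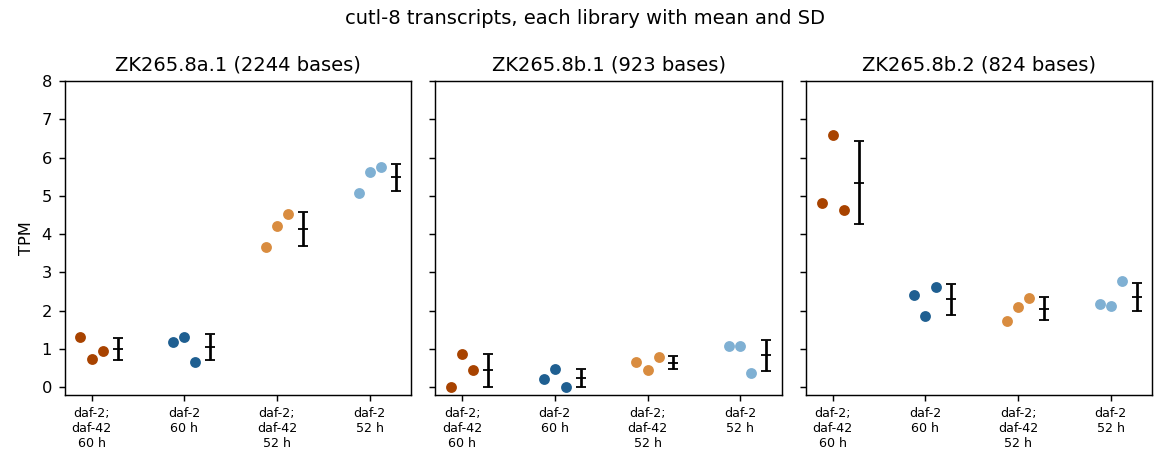
TPM of the 3 cutl-8 transcripts in each of the 12 libraries, with group means and SD of 3 libraries. The 2244-base transcript is lower at 60 h in both genotypes, and the 824-base transcript is higher in double mutants at 60 h than in the other groups.

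Several members lie across other genes, and the sources used here do not say whether reads were assigned by strand, although the library kit keeps strand. Exons of 10 members overlap a gene on the opposite strand, so their reads may be mixed. For cut-3 this is evl-20, an ADP-ribosylation factor-like protein, whose fold change over time in double mutants was 1.10 and called, beside 1.44 for cut-3, while at 60 h between genotypes it was 0.66 and not called (adjusted p = 0.0514). For cutl-15 it is T21B10.4, called higher over time in both genotypes (0.72 in double mutants and 0.70 in daf-2) but at -0.44, not called, between genotypes at 60 h, where cutl-15 had 1.36. For cutl-11 it is T04F8.8, which was higher in double mutants at 60 h (2.56, adjusted p = 0.000115) while cutl-11 was lower (-1.19). At 60 h T04F8.8 averaged 78.8 ± 31.9 CPM in double mutants and 13.3 ± 4.71 CPM in daf-2, against 1.18 ± 0.319 CPM and 2.70 ± 0.252 CPM for cutl-11. For cutl-8 it is T01G9.2, for cutl-5 F10E7.6 and for cutl-23 rev-3, which between genotypes at 60 h were at 0.41, 0.54 and -0.85, in that order, and not called. Over time in double mutants all 3 were called, at 0.55 for T01G9.2, 0.85 for F10E7.6 and -0.99 for rev-3. For cutl-17 it is cpin-1, which fell over time in both genotypes (-0.63 in double mutants and -1.38 in daf-2), as cutl-17 did, and was higher in double mutants at 60 h (0.68, adjusted p = 0.0449). For cutl-18 it is T03F7.7, called higher over time in double mutants (1.51) and in daf-2 (1.06), where cutl-18 fell (-1.31). At 60 h T03F7.7 averaged 187 ± 41.5 CPM in double mutants, against 2.26 ± 0.884 CPM for cutl-18. In daf-2 it averaged 138 ± 33.7 CPM, against 1.46 ± 0.354 CPM. The gene cutl-20 overlaps shc-1 on its own strand and its estimated counts lay 0.11 to 0.48 from a whole number in all 12 libraries, so its values are uncertain. In the other members this distance was at most 0.07 (cut-2).

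The 32 tested genes include 8 that edgeR with all libraries called in no comparison: cut-1, cutl-4, cutl-6, cutl-10, cutl-19, cutl-21, cutl-22 and cutl-25. Other settings called some of them over time in double mutants. These were cut-1 with DESeq2 (-0.90, adjusted p = 0.0489) or without double mutant 60 h replicate 1 (-1.3), cutl-21 with the length offset, and cutl-4 with the length offset, DESeq2 (0.93, adjusted p = 0.0484), upper-quartile scaling (1.01, adjusted p = 0.0486), only the 2 groups compared (0.95, adjusted p = 0.0446), or without double mutant 60 h replicate 1 (1.12), double mutant 52 h replicate 1 (1.26) or daf-2 52 h replicate 1 (0.95). For cutl-25 the 60 h genotype difference (1.32) and the interaction (1.44) were called without double mutant 60 h replicate 1. The other 3 of the 35, cutl-2, cutl-7 and cutl-13, failed the filter on low counts and were not tested. They had at most 7, 6 and 8 estimated counts in any library, in that order. The 35 genes lie on all 6 chromosomes, 9 on chromosome II and 7 on chromosome I, and their mean transcript lengths run from 773 to 2988 bases with a median of 1501, against 1207 for all genes tested.

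Other matrix protein genes, most with a ZP domain but none with the cuticlin name, mostly fell over time. Of 7 such genes (noah-1, noah-2, fbn-1, dyf-7, let-653, ram-5 and dex-1) none was called by edgeR between genotypes at either time. Of all genes tested 34.4% were called at 60 h and 0.635% at 52 h. Without adjustment 1 of the 7 had a p under 0.05 at 60 h and 0 at 52 h. The medians were -0.24 at 60 h and 0.20 at 52 h, although with the length offset 3 were called higher at 60 h and that median was 0.38. Over time 5 fell in double mutants and 5 fell in daf-2, with medians of -1.65 in double mutants and -1.61 in daf-2, and none rose. Of all genes tested 18.6% fell in double mutants and 16.2% in daf-2, and with the length offset the median in double mutants was -0.96. The apical matrix genes noah-1 (-2.59 in double mutants and -1.88 in daf-2) and noah-2 (-2.48 and -1.89) fell in both, as did let-653, a protein of temporary epithelial coats (-1.60 and -1.90). The gene fbn-1, for a fibrillin-like matrix protein, fell in double mutants (-3.27), and in daf-2 it was not called (-1.10, adjusted p = 0.265) except with the length offset (-1.49, adjusted p = 0.00323). The interaction was called for none of the 7, and 0 had an unadjusted p under 0.05. The difference between these genes and the cuticlins was not tested.

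At 60 h 17.4% of all genes tested were higher in double mutants and 17% were lower. Of 8 genes for the cross-linking and processing of cuticle proteins, 1 was higher and 1 lower in this comparison. These were tsp-15, a tetraspanin that partners the cross-linking oxidase (0.77, adjusted p = 0.00955), and bli-4, a proprotein convertase (-0.85, adjusted p = 0.0331). With the length offset bli-4 was at -0.16 and not called, and rises of bli-3 (0.63) and duox-2 (1.96) were added. In CPM, without the offset, bli-3 averaged lower in double mutants (126 ± 47.1 CPM) than in daf-2 (176 ± 49.2 CPM) at 60 h. The duox-2 level was low, at 0.973 ± 0.0941 CPM in double mutants and 0.591 ± 0.2965 CPM in daf-2 (SD, n = 3 each). Over time the peroxidases skpo-1 (2.00 in double mutants and 1.5 in daf-2) and mlt-7 (0.76 and 1.31) and the oxidase maturation factor doxa-1 (0.72 and 1.21) rose in both genotypes. Of all genes tested 22.4% rose in double mutants and 18.5% in daf-2. The dual oxidase bli-3 was called lower in double mutants (-1.30), but at -0.04 with the length offset, and tsp-15 fell in daf-2 (-0.75).

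Of 12 regulators of seam cells and the epidermis none was higher in double mutants at 60 h and 2 were lower, nhr-25 (-1.15, adjusted p = 0.0192) and the seam gene ceh-16 (-0.56, adjusted p = 0.0376). Of all genes tested 17.4% were higher and 17% lower. The nuclear receptor nhr-23, a driver of the molting cycle, fell over time in both genotypes (-2.03 in double mutants and -1.37 in daf-2), and ceh-16 rose in both (0.70, or 0.39 and not called with the length offset, in double mutants and 1.04 in daf-2). In double mutants 1 of the 12 rose, against 22.4% of all genes tested, and 6 fell, against 18.6%, blmp-1 (-1.60) and lin-29 (-1.02) among them. In daf-2 2 rose, nhr-25 (1.11) and ceh-16, against 18.5% of all genes tested, and 2 fell, nhr-23 and nhr-73 (-1.14), against 16.2%. At 52 h no gene of these 3 lists was called between the genotypes by edgeR, and 0 had an unadjusted p under 0.05.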

How the data were processed

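Polyadenylated RNA of whole larvae was sequenced from TruSeq stranded mRNA libraries, per the labels' protocols. The submitters' processing notes name kallisto 0.46.1 and WBcel235. Per the file headers, the authors deposited 1 table per library with an estimated count, a TPM value and 2 lengths for each of 36172 transcripts. Estimated counts split reads between similar transcripts. Transcripts were matched to the Ensembl annotation of WBcel235, 31502 by exact identifier and 4581 by sequence name, while 89 did not match. They were summed to 22113 genes and rounded to whole numbers. Coordinates are those of that annotation. Totals were 30011686 to 43519410 estimated counts per library. Every pair of libraries within a group differed beyond sampling noise (chi-square of at least 13.7 per degree of freedom), so none was counted as a duplicate.

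Genes were tested with edgeR 4.0.16 (R 4.3.3), using TMM scaling, filterByExpr by group and the quasi-likelihood test on 12 libraries in 1 fit with a mean for each of 4 groups. Of these genes 16371 passed the filter. There were 5 contrasts: the genotypes at each time, the times in each genotype, and the interaction. Fold changes run daf-2;daf-42 over daf-2 and 60 h over 52 h. CPM is the count per 1000000 of the TMM-scaled library. TPM served for levels between genes and to describe levels across groups, and was not tested. SE is the fold change over the square root of the F statistic. The length offset removes a lowess trend with length (span 0.3) from each library. Other settings were 2 other scalings (RLE and upper quartile), 2 other count filters, DESeq2 1.42.0, fits of the 2 groups compared, a minimum fold change of 1.5 (glmTreat, edgeR), a replicate term and leaving out each library in turn.

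Counts of 16110 genes were simulated, with 200 genes changed in the double mutant 60 h libraries. In the 60 h genotype comparison 96% of genes changed 4-fold and 20% of those changed 2-fold were called, and 1.7% of calls were unchanged genes. The simulation had no length trend and far fewer changed genes than the 34.4% called in the data, so its rates do not carry over to them. Deviations from group means of same-numbered libraries had positive r in the genotype comparison at 52 h (0.249, 0.136 and 0.198 for replicates 1 to 3). They did too in the time comparison of double mutants (0.109, 0.408 and 0.136). The replicate term changed no count of calls in these 2 comparisons.

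The members, the other gene lists and the tests were chosen with earlier results of these data known. By the naming rule the 6 cut genes are given throughout, with the 4 largest rises and 4 largest falls of each contrast among called members, every other called member by its fold change, and up to 3 called genes per direction from each other list.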

Additional observations from a re-analysis of the deposited data

Results flagged for a closer look

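In 8 cuticlin genes the change over time differed between the genotypes by the interaction test of edgeR (adjusted p under 0.05, called in 9.52% of all genes tested). Values are differences between log2 fold changes over time, daf-2;daf-42 minus daf-2, with 3 libraries in each of the 4 groups. The change was more positive in double mutants for cut-2 (3.91, adjusted p = 0.0138), cutl-5 (1.65, adjusted p = 0.004), cutl-8 (1.42, adjusted p = 0.00484), cut-5 (1.28, adjusted p = 0.0218) and cutl-15 (1.24, adjusted p = 0.0103). It was more negative for cutl-24 (-1.77, adjusted p = 0.0315), cutl-3 (-1.69, adjusted p = 0.0021) and cutl-11 (-1.32, adjusted p = 0.0406).

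The calls of cut-2, cutl-3, cutl-5, cutl-8 and cutl-15 were kept in all 12 fits that left out 1 library, although the cut-2 value was 2.89 without daf-2 52 h replicate 1 and 4.58 without daf-2 60 h replicate 1. The cut-5 call was lost without double mutant 60 h replicate 3 (1.19), double mutant 52 h replicate 1 (1.3), or daf-2 52 h replicate 2 or 3 (1.27 in both). The cutl-11 call was lost without any of 9 libraries and kept only without double mutant 60 h replicate 1 (-1.15) or 2 (-1.51) or daf-2 60 h replicate 3 (-1.28). The cutl-24 call was lost without any of 9 libraries and kept only without double mutant 60 h replicate 1 (-2.02), daf-2 60 h replicate 3 (-1.95) or double mutant 52 h replicate 1 (-1.97).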

How the results depend on the processing

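No called value of a cuticlin gene changed direction under any alternative run. Of the 13 members called between genotypes at 60 h, 8 were called with only the 2 groups compared in the fit (cut-4, cut-6, cutl-14, cutl-24 and cutl-27 were lost) and 6 against a minimum fold change of 1.5. With 1 library left out the count ranged from 8 to 15, with 8 without daf-2 60 h replicate 2. Over time in double mutants the count of 19 was 10 against the minimum fold change and 15 to 20 with 1 library left out, and in daf-2 the count of 18 was 16 to 18 with 1 library left out. The interaction count of 8 was 4 against the minimum fold change, 13 with DESeq2 and 5 to 10 with 1 library left out, with 5 without double mutant 60 h replicate 3, daf-2 52 h replicate 2 or daf-2 52 h replicate 3. At 52 h it stayed at 0 in every fit. The cause of these changes was not tested, and the shares of all genes called in these fits are not given here.

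For same-numbered libraries r had mixed signs at 60 h (0.24, -0.627 and 0.123) and over time in daf-2 (0.303, 0.263 and -0.025). With 3 libraries per group these values do not settle whether the replicate numbers pair the libraries. With the replicate block 12 members were called at 60 h (cut-6 and cutl-14 were lost and cutl-18 was added), 18 between the times in daf-2 and 7 by the interaction, where cutl-11 and cutl-24 were the calls lost. The block changed no count at 52 h or over time in double mutants, which stood at 0 and 19. Low counts limit cutl-2, cutl-7 and cutl-13, which could not be tested.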
